A study of Macaca mulatta with 30 samples.

Results

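The genes described here carry newly made secretory proteins into, through and out of the endoplasmic reticulum (ER), in 5 tissues of the rhesus macaque (Macaca mulatta). They were chosen by name: the SEC11, SEC13, SEC16, SEC22, SEC23, SEC24, SEC31, SEC61, SEC62 and SEC63 genes, SSR, SPCS, SRP, PDIA, ERO1, TMED, COPI coat, KDELR and reticulocalbin families, and a set of ER chaperones with HSPA5, HSP90B1, CALR, CANX and P4HB among them. A gene also needed at least 1 TPM, the deposited unit of transcript abundance, in at least 6 of the 30 libraries. All 80 rows with such names met that minimum, out of 13550 genes that met it and 21292 rows in all. TPM is a level corrected for transcript length, so levels of different genes can be compared, and every library adds up to the same total.

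The study took parotid, submandibular and sublingual salivary gland, pancreas and liver from each of 6 animals, 4 females and 2 males, to compare tissues within animals. Each tissue of each animal gave 1 library, made from 3 flash-frozen sections of 30 µm and read as paired 150-base reads. The labels name no treatment, transgene, strain or age. Salivary glands are labelled as left glands, except the parotid of animal 3, whose library name carries an R in place of the L. The stated contrasts are each salivary gland against pancreas and pancreas against liver, and the 3 gland pairs were added here.

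A secreted protein is caught by the signal recognition particle as it leaves the ribosome, docked on the ER membrane and threaded through the SEC61 channel, where signal peptidase cuts off its leader. Chaperones and disulfide isomerases then fold it, COPII vesicles with p24 cargo receptors carry it towards the Golgi, and COPI vesicles with KDEL receptors bring escaped ER proteins back. Acinar cells of pancreas and salivary glands and hepatocytes are known for heavy traffic along this route.

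Most libraries held the markers of their labelled tissue, and a few stood apart. The 13 pancreas acinar markers in the table summed to a median of 373426 TPM in pancreas, but to 4540 TPM in the pancreas of animal 4. Animal 4 also had low salivary markers: the 10 of them summed to 2289 TPM in its submandibular and 5164 TPM in its sublingual gland, where the tissue medians were 261267 and 210039 TPM. Adipose markers reached 18013 TPM in pancreas 4 and 7840 TPM in submandibular 4, against tissue medians of 84.1 and 69 TPM. Muscle markers reached 84715 TPM in parotid 6 and 17242 TPM in sublingual 5, where the tissue medians were 146 and 198 TPM. Islet markers reached 132639 TPM in pancreas 3, where the tissue median was 10941 TPM. Markers also appeared outside their own tissue. The acinar markers summed to between 504 and 5218 TPM in libraries other than pancreas, and the salivary markers to between 6409 and 9441 TPM in liver. The origin of this signal was not tested. A library's top 10 genes held on average 23.7 ± 2.97% of its TPM in liver (SD, n = 6), but 40.2 ± 13.5% in pancreas and 72.2 ± 16.6% in parotid. In TPM, less of every other gene is then left where a few secreted transcripts dominate, so each test is given both on the deposited values and after trimmed-mean scaling between libraries.

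Summed over the 80 genes, pancreas and sublingual gland had the highest mean deposited TPM and parotid the lowest, an order that scaling changed. The sum was 5854 ± 983 TPM in pancreas (SD, n = 6), 5650 ± 1795 in sublingual, 4827 ± 1389 in liver, 3918 ± 1150 in submandibular and 2800 ± 574 in parotid. The lowest pancreas sum, 4646 TPM, lay above the highest parotid sum, 3553 TPM, while sublingual and liver overlapped pancreas. PDIA2 alone held 1311 TPM of that pancreas sum (animal 5) and 8.48 TPM of that parotid sum (animal 2), so this gap depends on PDIA2. The pancreas mean also includes PDIA2, at 23.5 to 1699 TPM there and at most 19.0 TPM in any other library. After scaling parotid (3233 to 6247) and pancreas (2609 to 9119) overlapped, and the lowest mean was that of liver (3269), with parotid at 4454. Liver had the highest mean for 36 of the 80 genes, sublingual for 26, pancreas for 10, submandibular for 7 and parotid for 1. After scaling the order was different, with submandibular highest for 31 genes, pancreas for 17, liver for 15, parotid for 10 and sublingual for 7. In pieces of whole tissue, fewer cells of a type and less RNA per cell cannot be told apart.

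The makeup of the set does not depend on the scaling, because it is a share within each library. Disulfide formation genes made up 29.8 ± 10.2% of the summed TPM in pancreas (SD, n = 6), against 16.3 ± 2.74% in liver and 9.94 ± 2.23% in parotid. PDIA2 was then left out of the disulfide genes but kept in the summed TPM. The share was 9.84 ± 0.946% in pancreas and 9.64 ± 2.25% in parotid. PDIA2 still took part of the pancreas total, so this pancreas share is understated and does not show that the tissues are alike. The pancreas shares of all other roles are lowered in the same way. Chaperones made up 22.4 ± 2.65% in liver and 8.61 ± 0.514% in parotid, with no overlap between these groups (lowest liver library 19.3%, highest parotid library 9.24%). The p24 cargo receptors ran the other way, from 20.4 ± 3.97% in submandibular and 19.0 ± 2.38% in parotid to 8.41 ± 2.00% in liver. Much of this difference rested on TMED3 and TMED6. With both left out of the p24 genes but kept in the summed TPM, the groups overlapped. The shares were then 10.2 ± 0.719% in submandibular, 9.42 ± 1.29% in parotid and 7.81 ± 2.12% in liver. TMED3 still took part of the gland totals, so these gland shares are understated and do not show that the tissues are alike. Mean translocon shares ran from 23.6 ± 2.03% in pancreas to 29.6 ± 5.13% in sublingual, and all 5 tissues overlapped.

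**Figure D1:**
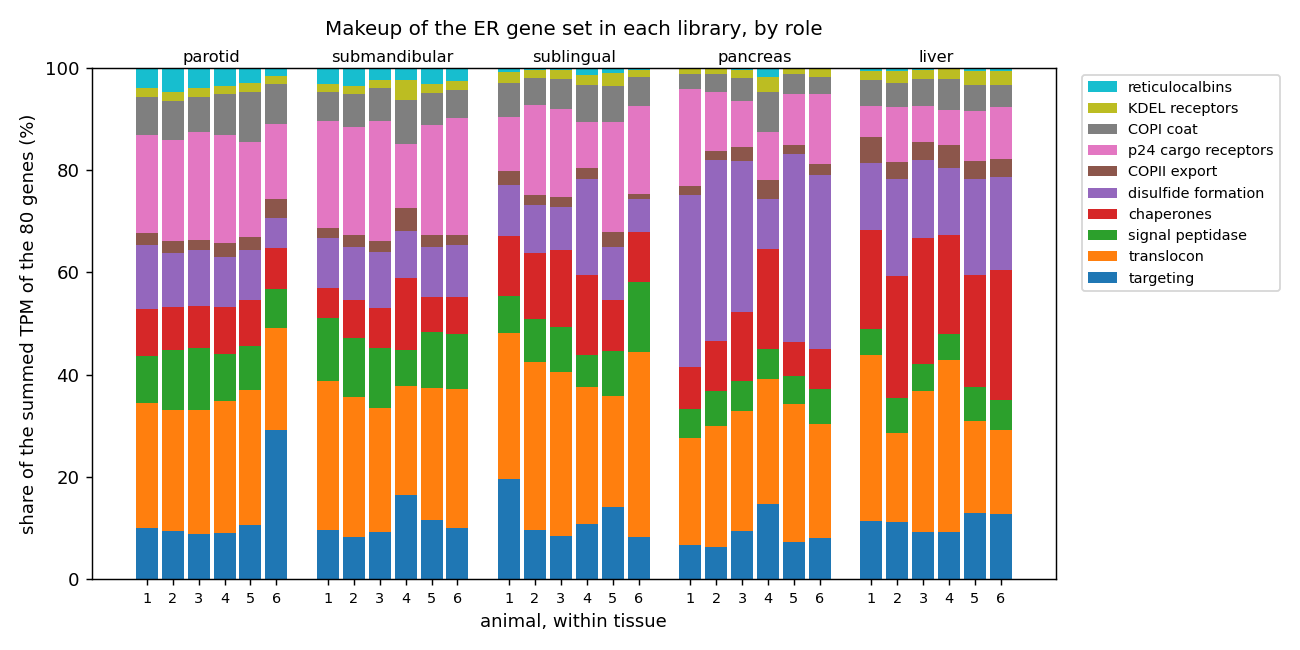
Share of the summed TPM of the 80 ER genes taken by each role (y axis, percent) in each of the 30 libraries (x axis, animals 1 to 6 within each tissue). The purple disulfide formation band is widest in 5 of the 6 pancreas libraries and narrow in pancreas 4 (9.68%), and the red chaperone band is wide in all 6 livers (19.3% to 25.5%).

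The contrasts with pancreas differed in how many members were called, and a few genes stood out by the size of their differences. In parotid against pancreas, 2 members were higher and 26 lower (limma, adjusted p under 0.05), where 2.24% and 13.6% of all 13550 genes were called. After scaling the counts were 4 higher and 10 lower, against 8.92% and 8.45% of all genes. The 26 lower members, 32.5% of the set, thus stood above the background share on deposited values, and the 10 left after scaling, 12.5%, were nearer to it. In submandibular against pancreas, 2 members were higher and 10 lower (background 2.25% and 7.46%), and 3 and 6 after scaling (8.25% and 7.82%). Sublingual against pancreas gave 2 higher and 3 lower (10.4% and 3.51%), and 1 and 11 after scaling (11.4% and 9.97%). Of these 8 shares of the members, 4 lay above the background share and 4 below it. The pancreas contrasts share the same 6 pancreas libraries and are not independent of one another.

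Pancreas against liver gave 6 members higher in pancreas and 7 lower, where 6.76% and 23.6% of all genes were called. After scaling it gave 14 higher and 7 lower (15.2% and 21.6%). The members called lower in pancreas, 8.75% of the set on either scale, were thus fewer than the background share. No member was called in parotid against submandibular on either scale, where the background was 0.133% higher and 0.214% lower, and 0.295% and 0.421% after scaling. At an unadjusted p under 0.05, 8 of the 80 members passed in that contrast on deposited values.

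The sublingual contrasts turned most on the scale. Parotid against sublingual called 1 member higher and 35 lower on deposited values (background 0.893% and 40.6%), but 8 higher and 5 lower after scaling (8.43% and 9.11%). Submandibular against sublingual called 1 higher and 14 lower (0.753% and 27.2%), but 13 higher and 1 lower after scaling (6.46% and 8.26%). The 35 lower members, 43.75% of the set, were near the background share. The median log2 fold change in parotid against sublingual was -0.76 over the members and -0.70 over all genes, and after scaling 0.19 and 0.01. No member was called in opposite directions on the 2 scales in any of the 7 contrasts.

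**Figure D2:**
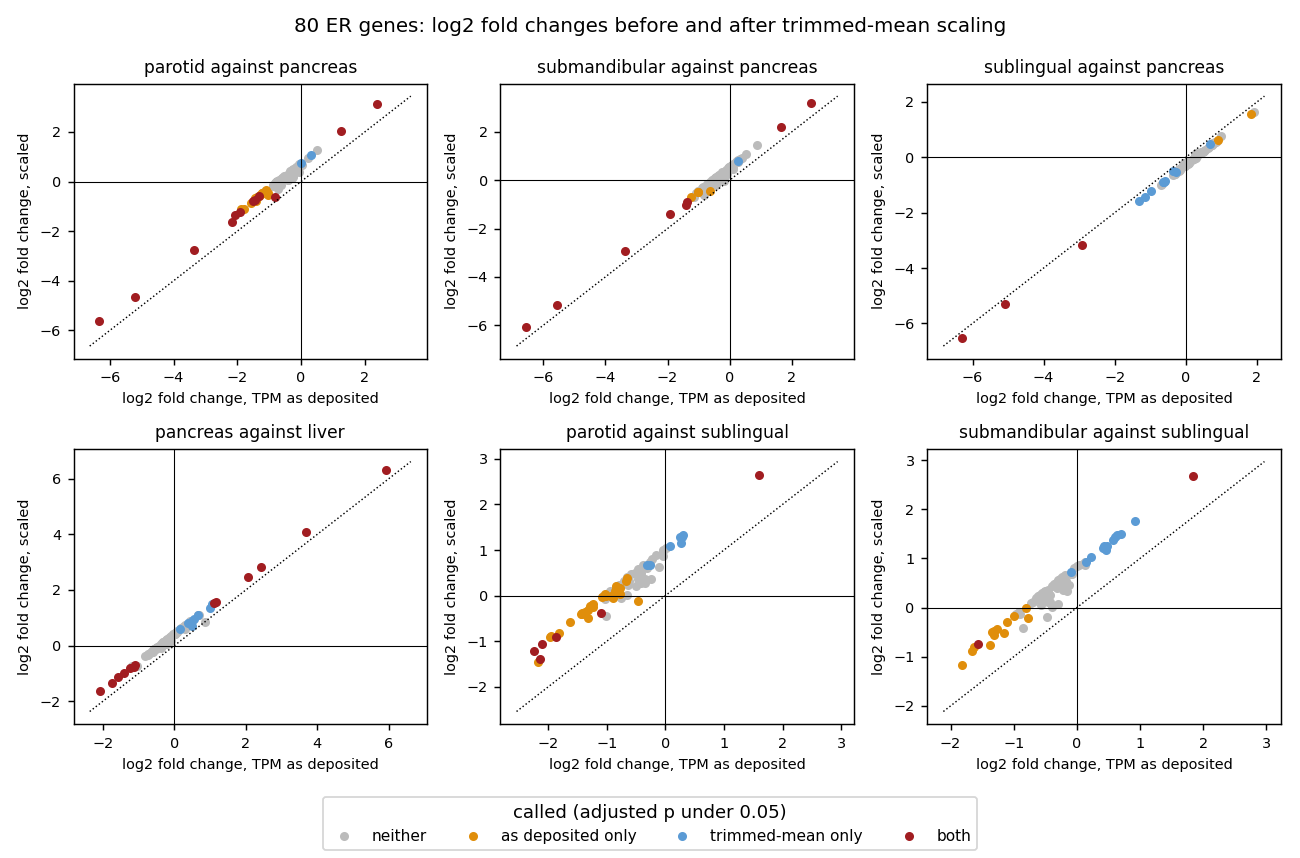
Log2 fold change of each of the 80 genes on deposited TPM (x axis) and after trimmed-mean scaling (y axis) in 6 contrasts, coloured by where the gene was called; the dotted line marks equal values. PDIA2, TMED6 and ERO1B lie far from the rest at lower left in all 3 contrasts of a salivary gland with pancreas. The median of the 80 genes rose with scaling in every panel except sublingual against pancreas, where it fell from -0.016 to -0.259.

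Leaving out pancreas 4 and submandibular 4 raised several counts by more than 1.5 times. Members called then numbered 25 in submandibular against pancreas, 21 in sublingual against pancreas, 27 in pancreas against liver and 42 in submandibular against sublingual. As shares of the set these are 31.25%, 26.25%, 33.75% and 52.5%, beside 29.4%, 33.6%, 48.8% and 66.7% of all genes, so the calls grew over all genes and the members' shares were near or below them. Pancreas 4 was low in acinar markers and submandibular 4 in salivary markers, and their part in the lower counts was not tested. Sublingual 4, also low in salivary markers (5164 TPM), stayed in.

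Among the targeting genes, SRP14, a subunit of the signal recognition particle, was the most abundant, and the receptor subunit SRPRB differed between pancreas and liver. SRPRB, which anchors the receptor in the ER membrane, was at 41.8, 55.1, 21.4, 27.8, 15.3 and 34.9 TPM in the pancreas of animals 1 to 6. In liver it was at 6.32, 19.9, 11.2, 7.40, 17.7 and 22.7 TPM. Pancreas was higher in 5 of 6 animals, by 1.17 on the log2 scale (SE 0.34, adjusted p = 0.0105). The ratio of SRPRB to its partner SRPRA, which scaling cannot alter, ran from 0.657 to 0.882 in pancreas and from 0.257 to 0.371 in liver, without overlap.

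SRP19, a protein that helps assemble the particle, was lower in parotid than in pancreas on both scales. It lay between 13.8 and 28.5 TPM in parotid and between 33.1 and 65.7 TPM in pancreas. The difference was -1.33 (SE 0.31, adjusted p = 0.00334), and -0.59 after scaling (adjusted p = 0.0368). The targeting sum reached 856 TPM in parotid 6, the library high in muscle markers, with SRP14 at 381 TPM and its partner SRP9 at 337 TPM there. The other parotid libraries held 77.2 to 135 TPM of SRP14 and 22 to 64.7 TPM of SRP9, and the part of muscle was not tested.

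In the translocon, the 2 forms of the channel subunit SEC61A ran apart in liver. SEC61A1, the general form, was at 9.31, 54.7, 10.5, 10.7, 41.6 and 53.1 TPM in livers 1 to 6. SEC61A2, its paralog, was at 18.1, 8.03, 14.7, 14.8, 7.87 and 7.54 TPM, so that the livers high in one were low in the other. Whether the quantification shared reads between these similar transcripts is not given in the sources used here, so both levels and their ratio are uncertain. The ratio of SEC61A2 to SEC61A1 had a median of 0.788 in liver (0.142 to 1.95) and 0.0308 in submandibular (0.0181 to 0.136). Its median was 0.180 in sublingual (0.0898 to 0.506), 0.0992 in pancreas (0.0171 to 0.336) and 0.0803 in parotid (0.0361 to 0.544). Sublingual, pancreas and parotid thus overlapped liver. SEC61A2 was lower in pancreas than in liver in all 6 animals, by -1.75 (SE 0.37, adjusted p = 0.00061), and -1.36 after scaling (adjusted p = 5.1e-05).

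SSR4, a subunit of the translocon-associated TRAP complex, was the most abundant translocon gene. It stood at 596, 621, 414, 236, 590 and 513 TPM in pancreas and at 185 to 270 TPM in liver, 98.1 to 155 in parotid and 161 to 240 in submandibular. The 5 pancreas libraries other than that of animal 4 lay above every liver, parotid and submandibular library. Pancreas exceeded liver by 1.10 (SE 0.35, adjusted p = 0.0187), and by 1.54 after scaling. In sublingual SSR4 spread from 142 TPM in animal 4 and 260 TPM in animal 1 to 1140 TPM in animal 3. Of the 10 translocon genes, 3 were lower in parotid than in pancreas on deposited values (SSR4, SSR2 and SEC61A1), and none of these remained called after scaling. Of all genes, 13.6% and 8.45% were lower on these scales.

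Signal peptidase has 2 catalytic subunits that replace each other, SEC11A and SEC11C. SEC11C prevailed in most gland libraries: the median ratio of SEC11C to SEC11A was 13.3 in submandibular, 11.6 in parotid, 6.48 in sublingual and 6.19 in pancreas, but 1.89 in liver. SEC11A was the higher form in submandibular 4 and pancreas 4, with ratios of 0.670 and 0.893. In sublingual 4 and sublingual 1 the ratios were 1.33 and 1.78, where liver ran from 1.55 to 2.34. SEC11C itself was at 145, 241, 179, 107, 75.0 and 61.3 TPM in parotid and at 27.7 to 57.7 TPM in liver, which did not overlap. Pancreas was above liver in all 6 animals by 1.05 (SE 0.41), which missed the threshold on deposited values (adjusted p = 0.0548) and passed after scaling (1.48, adjusted p = 0.0485).

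Among the chaperones, HSP90B1 had the widest range of tissue means. HSP90B1 (GRP94), the ER form of HSP90, was at 146, 196, 192, 148, 153 and 183 TPM in liver. In parotid it was at 17.7, 19.3, 15.4, 23.1, 12.9 and 26.0 TPM. In pancreas it was at 45.9, 44.1, 91.0, 150, 31.2 and 32.8 TPM, with animal 4 alone inside the liver range.

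HSP90B1 was lower in pancreas than in liver by -1.59 (SE 0.36, adjusted p = 0.00116) and lower in parotid than in pancreas by -1.52 (SE 0.36, adjusted p = 0.00428). Both calls held after scaling, at -1.15 and -0.78. It was also below sublingual in parotid (-2.24, adjusted p = 7.14e-05) and in submandibular (-1.56, adjusted p = 0.00301), again on both scales. HSPA5 (BiP), the main ER HSP70, moved less: its liver values spread from 70.8 to 338 TPM and overlapped pancreas (46.4 to 169 TPM). HSPA5 was lower in parotid than in pancreas on deposited values (-1.24, SE 0.38, adjusted p = 0.0263) but not after scaling (-0.48, adjusted p = 0.40).

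SDF2L1, a partner of the BiP cycle, was lower in parotid and submandibular gland than in pancreas. It was at 2.74 to 13.2 TPM in parotid and 18.8 to 61.3 TPM in pancreas, without overlap. The difference was -2.07 (SE 0.35, adjusted p = 0.000122), and -1.35 after scaling (adjusted p = 0.012). For submandibular gland it was -1.93 (SE 0.35, adjusted p = 0.000375). Of the 11 chaperones, 9 were lower in parotid than in pancreas on deposited values, and 2 of them, HSP90B1 and SDF2L1, after scaling. Of all genes, 13.6% and 8.45% were lower on these scales.

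The largest fitted differences of the set lay among the disulfide enzymes and TMED6. PDIA2, a protein disulfide isomerase known from the pancreas, was at 1699, 1619, 977, 23.5, 1311 and 1381 TPM in the pancreas of animals 1 to 6. In the other 24 libraries it lay between 2.39 and 19.0 TPM. Acinar markers were also present there, summing to between 504 and 5218 TPM, and the origin of these low PDIA2 values was not tested. Even the low pancreas of animal 4 was above every other library, and PDIA2 was the only member with its highest tissue free of overlap in pancreas.

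PDIA2 was lower than in pancreas by -6.33 in parotid (SE 0.63, adjusted p = 1.3e-07), -6.56 in submandibular and -6.29 in sublingual, and pancreas exceeded liver by 5.93. Its ratio to P4HB, the general disulfide isomerase, had a median of 3.64 in pancreas and at most 0.129 in any library of the other tissues, but pancreas 4, at 0.106, lay inside that range. P4HB itself overlapped between all tissues, from 223 to 532 TPM in pancreas and 150 to 673 TPM in liver.

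ERO1B, the oxidase that recharges the isomerases, followed the same pattern. It was at 72.1, 70.3, 59.0, 3.91, 58.8 and 72.7 TPM in pancreas and at 1.87 to 12.6 TPM in all other libraries. Only the pancreas of animal 4 fell into the range of the other tissues. The difference was -3.35 for parotid (SE 0.42, adjusted p = 1.98e-06), -3.37 for submandibular and -2.93 for sublingual, all called after scaling too. The ratio of ERO1B to its paralog ERO1A had a median of 48 in pancreas, against 1.73 to 3.46 in the other tissues.

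ERO1A was low nearly everywhere, with 2 exceptions. It was at 49.7, 2.05, 1.59, 214, 4.95 and 1.03 TPM in sublingual libraries 1 to 6, and at most 4.17 TPM in the other 24 libraries. Sublingual 1 and 4 also held 36783 and 95708 TPM of 8 squamous epithelium genes (KRT13, KRT5, KRT14, KRT78, SPRR3, SPRR1B, CRNN and TGM3), against at most 520 TPM in the other sublingual libraries and 570 TPM elsewhere. That list was chosen after the ERO1A values were seen, and its part in the result was not tested. ERO1A was called lower in parotid than in sublingual on deposited values (-2.18, SE 0.65, adjusted p = 0.0112); after scaling it was not called (-1.44, adjusted p = 0.136), nor without these 2 libraries (-0.56).

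PDIA4 and PDIA5, isomerases with extra thioredoxin-like domains, were highest in liver. PDIA4 was at 43.1, 138, 113, 58.8, 95.5 and 132 TPM in liver, 8.60 to 38.2 TPM in pancreas and 3.31 to 5.76 TPM in parotid, and these 3 groups did not overlap. It was lower in pancreas than in liver by -2.08 (SE 0.39, adjusted p = 0.000127) and lower in parotid than in pancreas by -1.91 (SE 0.39, adjusted p = 0.000925). PDIA5 lay at 20.7 to 31.5 TPM in liver, above every library of the other tissues, and was lower in the same 2 contrasts, by -1.25 and -2.17. All 4 calls held after scaling.

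**Figure D3:**
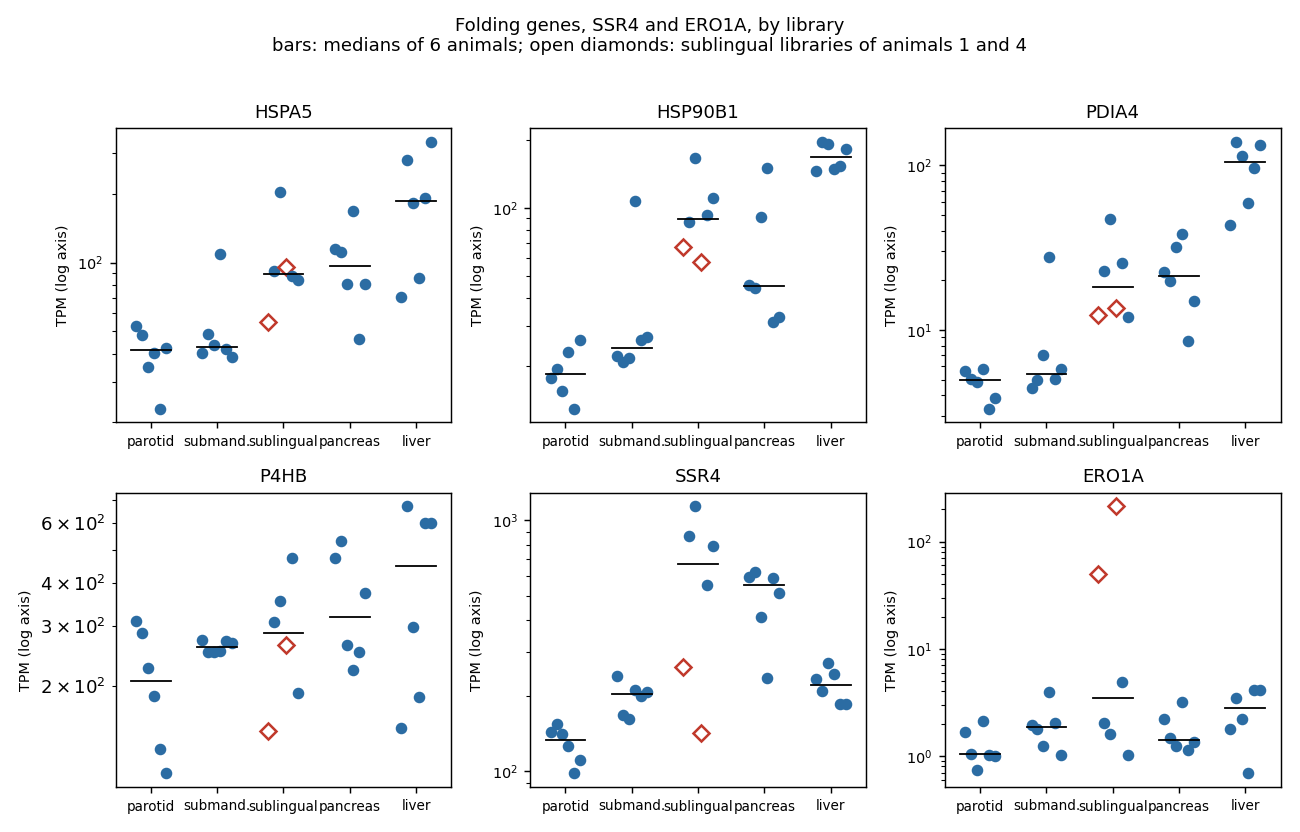
TPM (log axis) of HSPA5, HSP90B1, PDIA4, P4HB, SSR4 and ERO1A in each library, by tissue; bars are medians of 6 animals and open diamonds are sublingual libraries 1 and 4. HSP90B1 and PDIA4 are high in all livers and low in all parotid libraries, and ERO1A is high only in the 2 marked libraries (49.7 and 214 TPM).

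COPII genes, which build the coat of vesicles leaving the ER, were called in fewer cases than chaperones or disulfide enzymes in parotid against pancreas. SEC31A, of the outer coat, was at 12.4 to 22.7 TPM in pancreas and 3.67 to 6.98 TPM in parotid, without overlap. The difference was -1.43 (SE 0.34, adjusted p = 0.00439), and -0.76 after scaling (adjusted p = 0.00442). SEC16A, which marks exit sites, was at 11 to 16.4 TPM in liver and 3.45 to 7.34 TPM in pancreas, and was lower in pancreas by -1.11 (SE 0.34, adjusted p = 0.0146). Of the 14 COPII genes, 3 were lower in parotid than in pancreas on deposited values and 1, SEC31A, after scaling. The shares of all genes were 13.6% and 8.45%. On both scales 2, SEC16A and SEC24B, were lower in pancreas than in liver, beside 23.6% and 21.6% of all genes.

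Among the p24 cargo receptors, TMED6 had the widest range of tissue means and TMED3 the highest level. TMED6 was at 747, 169, 85.1, 5.87, 183 and 261 TPM in pancreas, and at 6.24 to 11.5 TPM in liver and 0.569 to 6.75 TPM in the salivary glands. Apart from animal 4, every pancreas library was above every other library. TMED6 was lower in parotid than in pancreas by -5.20 (SE 0.59, adjusted p = 6.23e-07), and higher in pancreas than in liver by 3.67 (SE 0.59, adjusted p = 1.87e-05).

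TMED3 ran in the salivary direction. It was at 258, 319, 324, 360, 182 and 130 TPM in parotid and at 411, 326, 384, 107, 442 and 492 TPM in submandibular. In pancreas it was at 152, 152, 82.6, 68.7, 83.4 and 112 TPM, and in liver at 17.8, 21.7, 18.9, 14.4, 18.5 and 21.6 TPM. Liver was below every other library, while low gland values such as submandibular 4 overlapped pancreas.

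TMED3 was higher than in pancreas by 1.25 in parotid (SE 0.41, adjusted p = 0.0393) and 1.65 in submandibular (SE 0.41, adjusted p = 0.00868), in all 6 animals each and on both scales. In sublingual the difference of 1.84 (adjusted p = 0.00223, 5 of 6 animals) missed the threshold after scaling (1.55, adjusted p = 0.051). Pancreas exceeded liver by 2.41 (SE 0.41, adjusted p = 4.12e-05). The ratio of TMED3 to TMED10, a p24 member found in most cells, had a median of 7.44 in parotid, 4.59 in submandibular, 3.81 in sublingual, 1.71 in pancreas and 0.489 in liver.

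Calls among the retrieval genes depended on the comparison and the scale. COPI coat genes made up 4.31 ± 1.77% of the summed TPM in pancreas (SD, n = 6) and 7.86 ± 0.938% in parotid. PDIA2 took part of the pancreas total and so lowered the share there. In pancreas 4, where PDIA2 was at 23.5 TPM, the COPI share was 7.74%. No COPI gene was called in parotid, submandibular or sublingual against pancreas or in pancreas against liver on deposited values. Against sublingual, 6 of the 8 COPI genes were lower in parotid and 1 in submandibular. After scaling 1 was lower and 2 higher in parotid and 1 higher in submandibular. Of all genes, 40.6% were lower in parotid and 27.2% in submandibular, and 9.11% and 8.26% after scaling. Higher after scaling were 8.43% and 6.46% of all genes. COPE, the most abundant of them, was at 58.6 to 85.9 TPM in parotid and 49.7 to 141 TPM in pancreas; its difference was -0.02 on deposited values and 0.75 after scaling (adjusted p = 0.0445). Of the KDEL receptors, which bind escaped ER proteins in the Golgi, KDELR2 was higher in sublingual than in pancreas by 0.89 (SE 0.30, adjusted p = 0.0499), a call that was lost after scaling. Of the 3 KDEL receptors, 1 was lower in parotid and 1 in submandibular than in sublingual, and none after scaling. The lower shares of all genes were those given above for COPI. KDELR3 relative to KDELR1 had a median ratio of 0.085 in liver (0.0648 to 0.112) and 0.213 to 0.292 in the other tissues, where no library was below 0.132.

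The reticulocalbins, calcium-binding proteins of the secretory route, were carried by RCN1. It was at 121, 170, 102, 91.7, 54.7 and 34.6 TPM in parotid and at 119, 113, 66.3, 103, 118 and 92.7 TPM in submandibular. In pancreas it was at 13.1, 12.6, 14.2, 72.6, 6.6 and 11.7 TPM. Leaving animal 4 aside, both glands lay above pancreas without overlap.

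RCN1 was higher than in pancreas by 2.37 in parotid (SE 0.45, adjusted p = 0.000494) and 2.61 in submandibular (SE 0.45, adjusted p = 0.000214), in 6 of 6 animals. It was also higher than in sublingual by 1.60 in parotid (SE 0.45, adjusted p = 0.00773) and 1.84 in submandibular (SE 0.45, adjusted p = 0.00467). These 4 calls held after scaling. The ratio of RCN1 to the calcium-binding chaperone CALR had a median of 1.51 in parotid and 1.62 in submandibular, against 0.107 in sublingual, 0.0938 in pancreas and 0.059 in liver. RCN3 was low in most libraries but reached 32.5 TPM in submandibular 4 and 24.2 TPM in pancreas 4, the libraries with high adipose and blood markers, whose part was not tested.

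**Figure D4:**
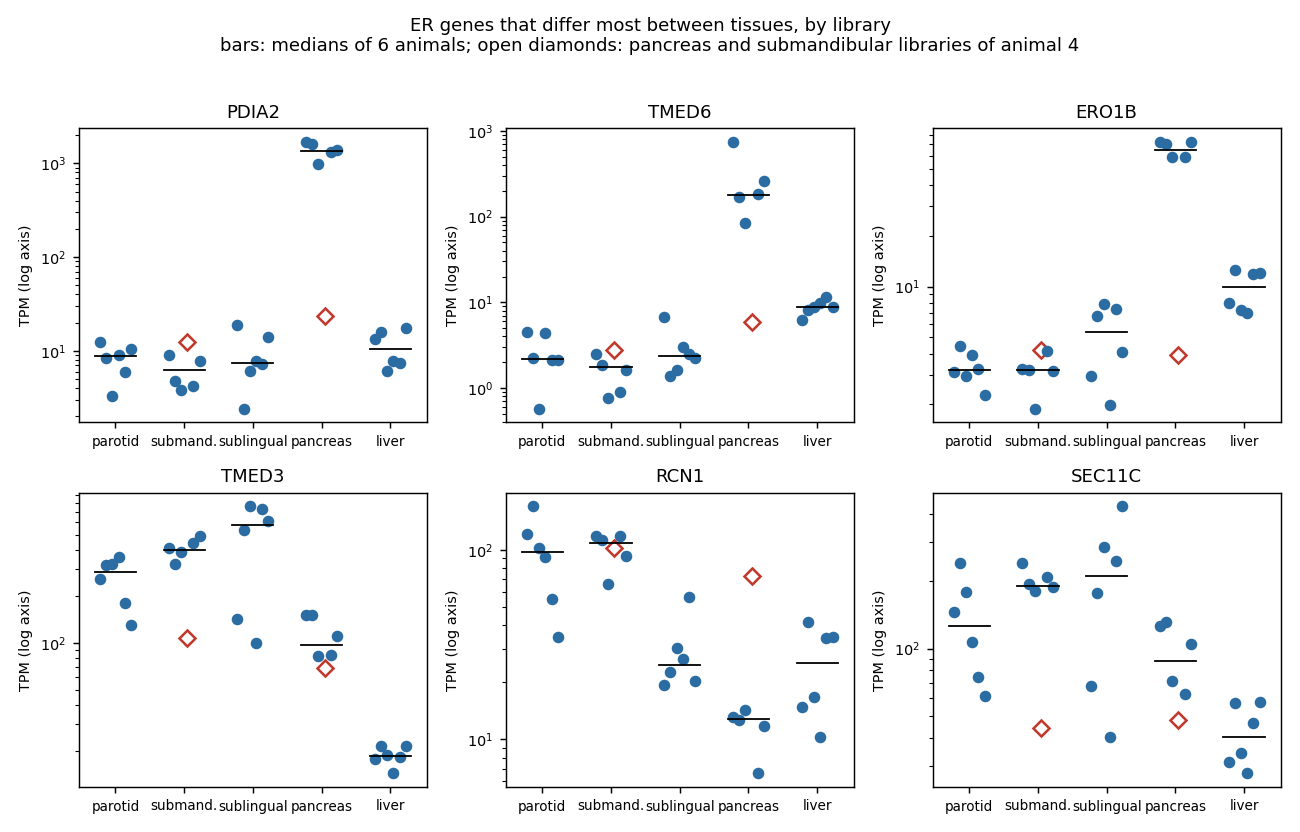
TPM (log axis) of PDIA2, TMED6, ERO1B, TMED3, RCN1 and SEC11C in each library, by tissue; bars are medians of 6 animals and open diamonds are pancreas 4 and submandibular 4. PDIA2, TMED6 and ERO1B are high in 5 of 6 pancreas libraries, TMED3 is lowest in liver, and RCN1 is high in parotid and submandibular.

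Within liver, many of the ER genes ordered the animals alike. For 51 of the 80 genes (63.8%), the 3 highest livers were those of animals 2, 5 and 6, which holds for 24.7% of all 13550 genes. The reverse order, with animals 1, 3 and 4 highest, was seen for 6 members (SEC31B, SEC61A2, SEC61B, SEC62, SRP19 and SSR4) and for 22.8% of all genes. All 5 signal peptidase genes, all 3 KDEL receptors, 7 of 10 p24, 6 of 8 targeting and 6 of 8 COPI genes had livers 2, 5 and 6 highest. So had 2 of 3 reticulocalbins, 6 of 11 chaperones, 7 of 14 COPII, 5 of 10 translocon and 4 of 8 disulfide genes. Liver markers went both ways. ALB was at 11506, 40306, 19666, 19122, 35844 and 46181 TPM in livers 1 to 6, the same order. APOA2 was at 45209, 39244, 49463, 66169, 37698 and 37594 TPM, with livers 1, 3 and 4 highest. P4HB, for example, was at 150, 673, 298, 185, 600 and 601 TPM, and HSPA5 at 70.8, 281, 182, 85.9, 191 and 338 TPM in livers 1 to 6. The order was seen in the data and no test of it was made, and the genes share the same 6 libraries. The top 10 genes of livers 2, 5 and 6 held 20.3%, 22.1% and 21.4% of all TPM and those of livers 1, 3 and 4 held 27.0%, 24.1% and 27.4%, and the part of this difference was not tested. In each tissue, liver included, the set of 3 highest animals was the one most frequent among the members. That choice favours the members' share over the share of all genes. The set held for 23.75% of members and 8.18% of all genes in parotid and for 32.5% and 16.3% in sublingual. In submandibular the shares were 22.5% and 27.2%, and in pancreas 21.25% and 25.1%. Because the sets were picked from the members, these shares are a description only.

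**Figure D5:**
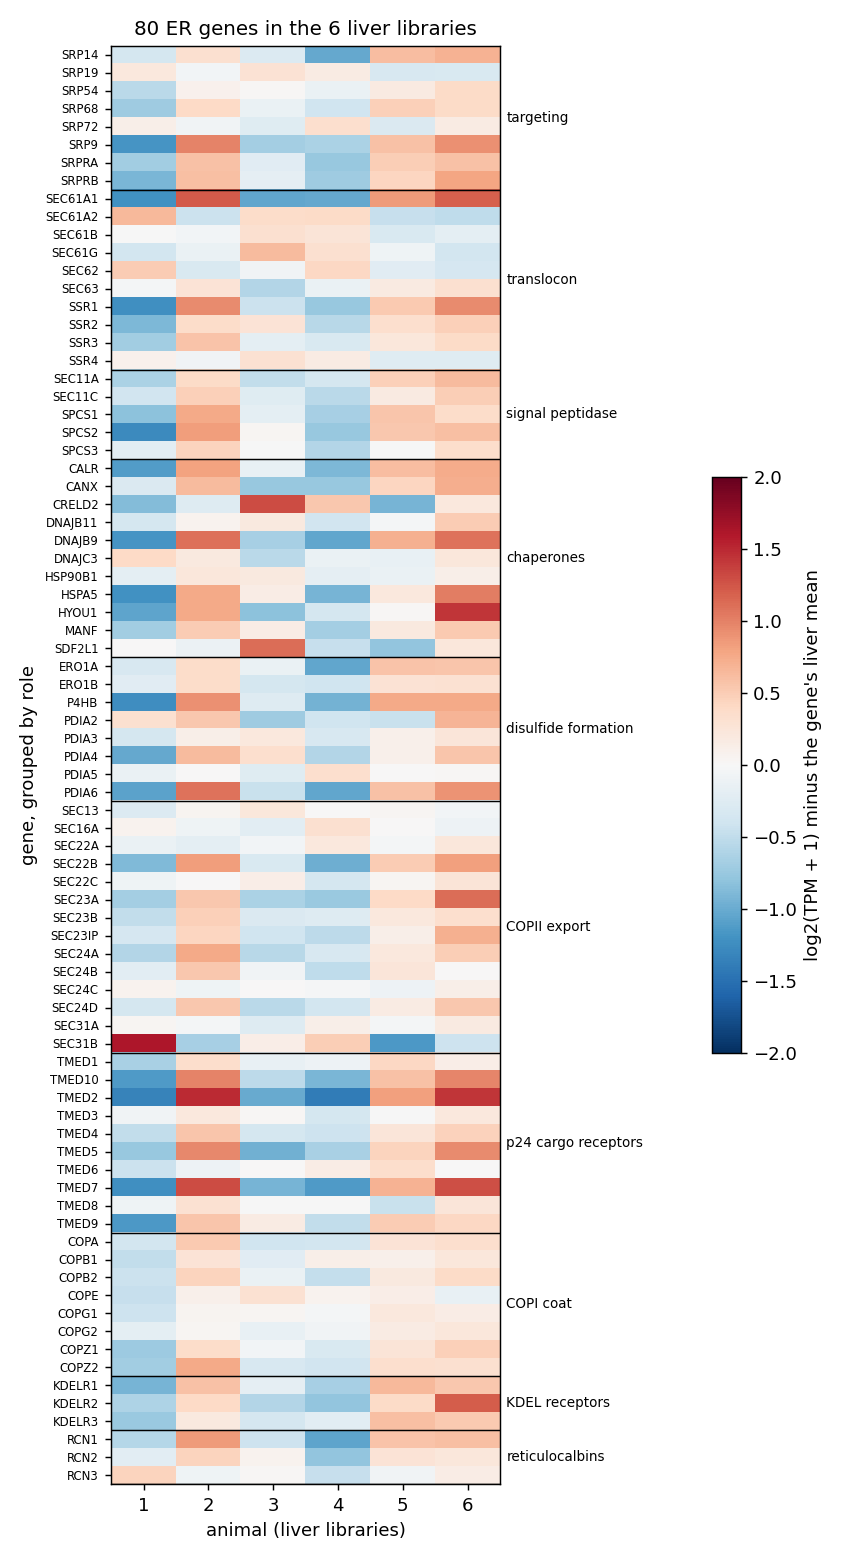
The 80 genes (rows, grouped by role) in the 6 liver libraries (columns), as log2(TPM + 1) minus each gene's liver mean; red is above and blue below the mean. Columns 2, 5 and 6 are red for most genes (51 of 80 have these as the 3 highest), with SEC61A2, SEC31B and SSR4 among the exceptions.

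Other genes of the ER were counted in 4 lists. Of 27 tested genes of the unfolded protein response and ER-associated degradation, 11 were lower in parotid than in pancreas and none higher, and 4 were higher and 5 lower in pancreas than in liver. After scaling these counts were 5 lower and 1 higher, and 7 higher and 4 lower. The lower share in parotid was 40.7% on deposited values and 18.5% after scaling, beside 13.6% and 8.45% of all genes. The lower share in pancreas against liver was 18.5% and 14.8% after scaling, below the 23.6% and 21.6% of all genes. The higher share was 14.8% and 25.9% after scaling, above the 6.76% and 15.2% of all genes. XBP1, the transcription factor that drives ER expansion in secretory cells, was at 576, 539, 373, 113, 485 and 422 TPM in pancreas and 52.2 to 123 TPM in parotid. It was lower in parotid by -2.26 (adjusted p = 0.000183), and by -1.49 after scaling.

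DERL3, of the degradation machinery, was at 137, 276, 94.1, 5.27, 195 and 230 TPM in pancreas and 3.92 to 11.9 TPM in liver, a difference of 3.67 (adjusted p = 9.09e-06). BHLHA15 (MIST1), an acinar transcription factor, was high in parotid (30.6 to 145 TPM) as in pancreas (2.57 in animal 4, otherwise 93.9 to 187 TPM). In sublingual BHLHA15 lay at 4.93 to 39 TPM and was below parotid by a log2 difference of 2.85 (adjusted p = 0.00246). CREB3L3, a liver ER-bound transcription factor, was at 85.2 to 156 TPM in liver and at most 1.15 TPM elsewhere.

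Of 25 other folding factors, 10 (40%) were lower in parotid than in pancreas, and 3 (12%) after scaling, beside the same 13.6% and 8.45% of all genes. ERP27, a non-catalytic disulfide isomerase relative, was at 567, 706, 177, 5.46, 331 and 543 TPM in pancreas and at most 7.40 TPM elsewhere. It was lower in parotid by -5.93 (adjusted p = 4.21e-07). AGR2, an isomerase relative needed for mucin folding, was at 43.1, 77.6, 87.3, 53.1, 656 and 24.4 TPM in sublingual. It was at 5.78 to 55.5 TPM in submandibular and 1.05 to 5.75 TPM in parotid, and the difference of -3.06 between these (adjusted p = 0.0077) was the only call of the 4 lists in parotid against submandibular on deposited values.

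Of 17 oligosaccharyltransferase and glycoprotein folding genes, 6 were lower in parotid than in pancreas and 11 lower in parotid than in sublingual, against 2 and 3 after scaling. These shares were 35.3% and 64.7%, beside 13.6% and 40.6% of all genes, and after scaling 11.8% and 17.6%, beside 8.45% and 9.11%. Of 23 other export and retrieval factors, pancreas was below liver for 6 and above it for none, and after scaling below for 6 and above for 4. The 6 are 26.1% of the list, near the 23.6% and 21.6% of all genes called lower on these scales. The 4 are 17.4% of the list, near the 15.2% of all genes called higher after scaling. The 10 plasma cell markers summed to 247 to 9155 TPM in sublingual and 17.1 to 38.8 TPM in parotid, and their part in the sublingual values was not tested.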

How the data were processed

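RNA was measured in 30 libraries, 6 animals by 5 tissues. The authors deposited 1 table of TPM values per gene and library, and per the submitters' processing notes the tools include kallisto, FastQC, MultiQC, cutadapt, HISAT2, SAMtools, featureCounts and DESeq2. The transcriptome, the summing to genes and the genome build are not given in the sources used here. TPM keeps no read depth, so depth is unknown and no counting interval is given; 8477 to 13515 genes reached 1 TPM per library.

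Groups came from the labels. The 13550 genes that reached 1 TPM in 6 or more libraries were tested with limma 3.58.1 (R 4.3.3) on log2(TPM + 1), with tissue and animal as terms over all 30 libraries, trended variance, two-sided, Benjamini-Hochberg adjustment within each of 7 comparisons and a threshold of 0.05. A log2 fold change is on this scale and understates the change of low genes. The animal number pairs libraries because the same animal gave all 5 tissues; deviations from tissue means correlated at 0.161 on average within animals and -0.0417 between animals. Trimmed-mean scaling divided TPM by a factor per library (30% of log ratios and 5% of mean levels trimmed at each end). Shares and ratios within a library were described without a test. The test was tried on simulated data.

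Named genes were landmark genes, the 5 largest called rises and falls per comparison whose higher tissue averaged 10 TPM or more, and the highest and widest-ranging gene of each role; the landmark SEC16B was not analysed here. Other genes were named after their values were seen. The members and lists were chosen with earlier results of these data known. Each p-value rests on 6 animals and on the scatter left after tissue and animal are fitted, pooled over all 30 libraries. It therefore also draws on tissues outside the comparison.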

Additional observations from a re-analysis of the deposited data

Results flagged for a closer look

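Summed TPM was examined for a library far from the other 5 in 55 sets of 6 libraries, and 12 were found, where chance gives about 5% of sets, or 2.75. In submandibular gland, animal 4 stood apart for all 80 genes (6173 TPM, next 3795), chaperones (876), COPI coat (527), disulfide formation (562), KDEL receptors (235), COPII export (282) and targeting (1019). In pancreas, animal 4 stood apart for COPI coat (451), reticulocalbins (112) and targeting (859), and low for disulfide formation (565, next 1475). In parotid, animal 6 stood apart for targeting (856, next 333). These values are deposited TPM. After trimmed-mean scaling submandibular 4 was the lowest of the 6 for each of these sums, at 2136 for all 80 genes (next 5279), 303 for chaperones and 182 for COPI coat. Pancreas 4 then lay inside the range of the others for COPI coat (202) and targeting (384), and was still highest for reticulocalbins (50.3) and lowest for disulfide formation (253), and parotid 6 was still highest for targeting (947). The sets share libraries and genes. Submandibular 4 and pancreas 4 also held high adipose and blood markers (blood markers 10899 and 13942 TPM) and parotid 6 high muscle markers; their part was not tested.

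In 1 of 77 comparisons of the sexes, every female moved one way and every male the other: the sum over all 80 genes favoured pancreas over liver in the 4 females, with a mean log2 difference of 0.56, and liver in the 2 males, at -0.18. This held on deposited TPM alone: after scaling both males also had the higher sum in pancreas, 5409 against 3860 in animal 5 and 6911 against 4026 in animal 6. The difference was not tested.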

How the results depend on the processing

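Counts of members called and of the 4 lists called are given in the order parotid, submandibular and sublingual against pancreas, pancreas against liver, parotid against submandibular, and parotid and submandibular against sublingual; the cause of each move was not tested unless fewer samples show it. As reported they were 28, 12, 5, 13, 0, 36 and 15 members and 32, 11, 7, 22, 1, 49 and 17 list genes. Without the animal block, which pairs the tissues, members were 26, 13, 4, 13, 0, 36 and 11, and no count moved by more than 1.5 times. Fits on only the 12 libraries compared gave 21 members and 20 list genes in submandibular against pancreas, 2 and 3 in submandibular against sublingual, and 0 list genes in parotid against submandibular. Trimmed-mean scaling gave 14, 9, 12, 21, 0, 13 and 14 members and 12, 11, 16, 29, 2, 16 and 15 list genes. Quantile normalisation gave 16, 9, 15, 41, 0, 14 and 16 members and 17, 13, 23, 40, 2, 15 and 18 list genes. A pseudocount of 0.1 gave 2 list genes in parotid against submandibular. Leaving out 1 animal at a time gave 16 to 30, 5 to 24, 4 to 22, 9 to 27, 0 to 0, 16 to 49 and 3 to 37 members, and 15 to 38, 5 to 28, 5 to 24, 18 to 44, 0 to 2, 25 to 60 and 6 to 52 list genes; every highest value above 0 came without animal 4. Without pancreas 4 and submandibular 4, members were 30, 25, 21, 27, 0, 47 and 42 and list genes 33, 29, 28, 43, 2, 61 and 50. Without these, parotid 6 and sublingual 1 and 5, members were 31, 29, 19, 33, 0, 39 and 30 and list genes 46, 34, 23, 46, 2, 44 and 35. The next 2 settings were chosen after seeing the data. Without sublingual 1 and 4, sublingual against pancreas gave 9 members and 15 list genes, and parotid against submandibular 2 list genes. Scaling and leaving out pancreas 4 and submandibular 4 together gave 16, 18, 17, 24, 0, 16 and 20 members and 17, 19, 25, 34, 4, 19 and 22 list genes. 

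Reversed log2 differences were as follows. Under trimmed-mean scaling COPE was 0.75 in parotid against pancreas; in parotid against sublingual COPA was 0.67, COPE 0.39 and SEC61B 0.0316; CANX was 0.72 in submandibular against sublingual. With pancreas 4 and submandibular 4 also left out, COPE was 0.73 in parotid against pancreas; COPA 0.67, COPE 0.39, PDIA2 0.88 and SEC61B 0.0316 in parotid against sublingual; CANX 0.78, DNAJC3 1.01 and KDELR2 0.11 in submandibular against sublingual. Under quantile normalisation, pancreas against liver gave CANX 0.69, COPA 0.60, COPE 0.94, KDELR1 0.69, PDIA6 0.84, SRP14 0.78 and SRPRA 0.94; parotid against sublingual gave COPE 0.67, DNAJB11 0.0347, SEC61B 0.47, SPCS1 0.24 and SRP14 0.20; submandibular against sublingual gave CANX 0.79, KDELR2 0.0818 and MANF 0.00669. Median log2 differences over all genes of -0.48, -0.33, 0.23, -0.36, -0.13, -0.70 and -0.56 became 0.04, 0.01, 0.02, -0.04, 0.03, 0.01 and -0.01 under trimmed-mean scaling. Testing all genes without the low-value filter moved no member count or total list count by over 1.5 times. TPM gives no read depth, so the precision of low genes such as TMED8 is not known.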
